A study of Mus musculus with 6 samples.

Results

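The genes described here are 9 core members of the mTOR signalling pathway, *Mtor*, *Rptor*, *Rictor*, *Mlst8*, *Tsc1*, *Tsc2*, *Rheb*, *Rps6kb1* and *Akt1*. They were chosen by name and matched through their Ensembl identifiers, and make up 9 of the 31053 genes listed for each library. The measured quantity was EPR, the number of C-to-U edits per read of a gene, in bulk RNA-seq libraries from primary mouse cortical neurons that expressed a Ribo-STAMP construct. Ribo-STAMP joins rAPOBEC1, a deaminase that turns cytosines of RNA into uracil, to a ribosomal protein, so that edits are left on the mRNAs the tagged ribosomes meet. EPR is a ratio of edits to reads and not an RNA level.

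The libraries fell into 2 groups of 3, RPL10A-STAMP and RPL22-STAMP, both proteins of the large ribosomal subunit. In RPL10A-STAMP the mouse Rpl10a open reading frame followed rAPOBEC1, and in RPL22-STAMP the mouse Rpl22 open reading frame preceded it. All neurons were WT, came from C57BL/6J embryos at E18, and were plated at 600000 cells per well. Floxuridine was given at DIV 3 against dividing cells, AAV at DIV 6, and Dox at 1 µg per ml for the 48 h before collection at DIV 14. All 6 libraries are labelled NT, which in the study stands for no treatment, that is without BDNF. A synapsin promoter drives the transactivator of the construct, which is meant to confine the construct's edits to cells where that promoter is active. The reads come from the whole well, and whether edits also arose in other cells was not tested. No library without a construct or without Dox was analysed here, so the background of edits in these genes is unknown. Between 9892 and 11195 genes per library had an EPR above 0, here called edited. All 8 neuron markers examined (*Map2*, *Rbfox3*, *Tubb3*, *Syn1*, *Snap25*, *Slc17a7*, *Gad1* and *Gad2*) were edited in all 6 libraries, as were 3 of 4 astrocyte markers and 1 of 4 oligodendrocyte markers. No microglia marker was edited in all 6, and *P2ry12*, *Csf1r* and *Aif1* were listed at 0 throughout. The reads behind each value are unknown, so counting error could not be given, and an EPR of 0 can mean no edits or no reads.

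mTOR is a kinase that matches cell growth to nutrients and growth factors. With raptor (*Rptor*) and mLST8 (*Mlst8*) it forms mTORC1, which promotes translation and ribosome production through the S6 kinase encoded by *Rps6kb1*, and with rictor (*Rictor*) and mLST8 it forms mTORC2, which phosphorylates Akt. Akt (*Akt1*) inhibits the complex of hamartin (*Tsc1*) and tuberin (*Tsc2*), which holds the GTPase Rheb (*Rheb*), the direct activator of mTORC1, in its inactive state. In neurons the pathway is known for its part in cell size, dendrite growth and synaptic plasticity, and loss of *TSC1* or *TSC2* causes tuberous sclerosis.

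rAPOBEC1 acts on cytosines, and the member transcripts differed widely in base composition, so a few of their coding stretches are printed before the values. For each gene, the transcript that codes for the most amino acids was searched for cytosines that lie between A or U, that is for ACA, ACT, TCA and TCT on the transcript's own strand, each cytosine being counted once. Coding stretches of 30 bases are shown for the kinase itself, for *Rps6kb1* and *Rictor*, the lowest in GC content over the whole transcript, and for *Akt1*, the highest. Each is the first stretch within an exon that holds the most such cytosines, written 5′ to 3′ in DNA letters from GENCODE M21 (GRCm38), with those cytosines in capitals.
*Rps6kb1*, exon 8, minus strand, chr11:86513571-86513600: atCtattCatgatggaaCagtCacgcaCaC
*Rictor*, exon 21, plus strand, chr15:6776871-6776900: CaaCaCtaCttCttatttatcggaaCaCtC
*Mtor*, exon 27, plus strand, chr4:148491422-148491451: tCtCaCttCtCaagaCattgctgaagtCaC
*Akt1*, exon 3, minus strand, chr12:112662188-112662217: tCagcgagagtccccaCtCaaCaaCttCtC
The stretches hold 6, 8, 8 and 7 cytosines between A or U in *Rps6kb1*, *Rictor*, *Mtor* and *Akt1*. Of all 30-base coding windows of 7921 genes edited in every library, 86.3% hold at least 1 such cytosine, 1.66% at least 6, 0.403% at least 7 and 0.0772% at least 8. Over the whole transcript, *Rictor* had 80.2 of these cytosines per kb and *Rps6kb1* 76.8, against a median of 69.6 among tested genes, while *Mtor* had 65.7 and *Akt1* 56.5. Each printed stretch was picked as the richest of its coding sequence, so the shares over all windows do not say how rare such a best stretch is. The letters describe the transcripts and do not mark edited positions, which EPR does not give.

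*Mtor* (ENSMUSG00000028991), which encodes the kinase shared by both complexes, is found at 148448611 to 148557683 of chromosome 4, plus strand (GRCm38, as for all positions here). Its EPR in RPL10A-STAMP replicates 1, 2 and 3 was 0.00531, 0.00409 and 0.0127, and RPL22-STAMP replicates 1, 2 and 3 gave 0.00577, 0.00991 and 0.00664. RPL10A-STAMP replicate 3 was the highest of all and RPL10A-STAMP replicate 2 the lowest, so the RPL22-STAMP libraries lay within the range of the others. Mean EPR was 0.00737 ± 0.00467 (SD, n = 3) for RPL10A-STAMP, and RPL22-STAMP had a mean of 0.00744 ± 0.00219 (SD, n = 3).

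The subunits that set the identity of the complexes were edited at low levels. *Rptor* (ENSMUSG00000025583; chromosome 11, plus strand, 119602905 to 119899576), the scaffold that brings substrates to mTORC1, had an EPR of 0.00431, 0.0116 and 0.00837 with RPL10A-STAMP, in replicate order, while RPL22-STAMP gave 0.00196, 0.0139 and 0. It was the only member listed at 0 in a library, RPL22-STAMP replicate 3, although its highest value also came from an RPL22-STAMP library. *Rictor* (ENSMUSG00000050310; chromosome 15, plus strand, 6708379 to 6800401), the defining subunit of mTORC2, had an EPR of 0.00812, 0.00522 and 0.0149 with RPL10A-STAMP, while RPL22-STAMP gave 0.00254, 0.0160 and 0.00205. The highest of the RPL22-STAMP libraries, replicate 2, was 7.83 times the lowest, and the groups overlapped.

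*Mlst8* (ENSMUSG00000024142; chromosome 17, minus strand, 24473551 to 24479078), the small subunit that both complexes contain, had the widest range of EPR, highest less lowest library. The RPL10A-STAMP libraries had an EPR of 0.0215, 0.0145 and 0.0192 and the RPL22-STAMP libraries one of 0.0144, 0.0321 and 0.00405. RPL22-STAMP held both the highest and the lowest library, which differed 7.92-fold, against 1.49-fold among the RPL10A-STAMP libraries. Of its exon bases, 22.5% also lie in exons of *Bricd5* on the opposite strand, and the strand setting of the authors' read counting is not given in the sources used here. The study left genes that responded to Dox out of its later bulk analyses, whereas they were kept here. *Mlst8* is on the study's list of such genes, of which only a part was available for looking up the members.

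Both inhibitors had a low EPR. *Tsc1* (ENSMUSG00000026812; chromosome 2, plus strand, 28641228 to 28691167) encodes hamartin, which stabilizes tuberin. The 3 RPL10A-STAMP libraries gave 0.00844, 0.00863 and 0.00765 for it and the RPL22-STAMP libraries 0.00427, 0.00547 and 0.00784. *Tsc2* (ENSMUSG00000002496; chromosome 17, minus strand, 24595816 to 24632630) encodes tuberin, the subunit that switches Rheb off. It stood at 0.00645, 0.0109 and 0.0118 with RPL10A-STAMP, against 0.00441, 0.0142 and 0.00484 for RPL22-STAMP. *Tsc1* varied little with RPL10A-STAMP, the highest library being 1.13 times the lowest. For *Tsc2*, RPL22-STAMP replicate 2 was above every RPL10A-STAMP library and the other two below all of them. Exons of *Pkd1*, its neighbour on the opposite strand, cover 7.20% of the exon bases of *Tsc2*.

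*Rheb* (ENSMUSG00000028945; chromosome 5, minus strand, 24802823 to 24842624) encodes the GTPase that activates mTORC1. It had an EPR of 0.00383, 0.00923 and 0.00796 with RPL10A-STAMP, against 0.00697, 0.0101 and 0.00797 for RPL22-STAMP. RPL10A-STAMP replicate 1 was lowest and RPL22-STAMP replicate 2 highest, with the other libraries close together. *Rheb* was the only member whose transcript had exact copies of at least 50 bases elsewhere in the genome. They were 363 in number and covered 64 bases, or 3.59%, of the transcript, so a read that lies wholly within a copy cannot be assigned to 1 place. The longest copy was 61 bases, and the read length is not given in the sources used here.

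*Rps6kb1* (ENSMUSG00000020516; chromosome 11, minus strand, 86498871 to 86544805) encodes the S6 kinase that mTORC1 phosphorylates and whose phosphorylation is widely used to read mTORC1 activity. EPR values of 0.0219, 0.0224 and 0.0245 were found with RPL10A-STAMP, against 0.0129, 0.0140 and 0.0115 for RPL22-STAMP. All 3 RPL10A-STAMP libraries were above all 3 RPL22-STAMP libraries (p = 0.1 by a two-sided exact permutation test, which cannot give less for 3 against 3). The means, 0.0230 ± 0.00138 (SD, n = 3) and 0.0128 ± 0.00125 (SD, n = 3), were farther apart than either spread. No other member had groups that did not overlap in the deposited EPR, which was so for 34.4% of the 8046 genes edited in all 6 libraries and, with RPL10A-STAMP higher, for 28.2%.

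*Akt1* (ENSMUSG00000001729; chromosome 12, minus strand, 112653821 to 112674884) encodes the kinase that relays growth factor signals to the TSC complex. Its EPR of 0.0166, 0.00549 and 0.0133 with RPL10A-STAMP spanned the 0.0146, 0.0145 and 0.00943 found with RPL22-STAMP. RPL10A-STAMP replicate 2 was the low library here.

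**Figure D1:**
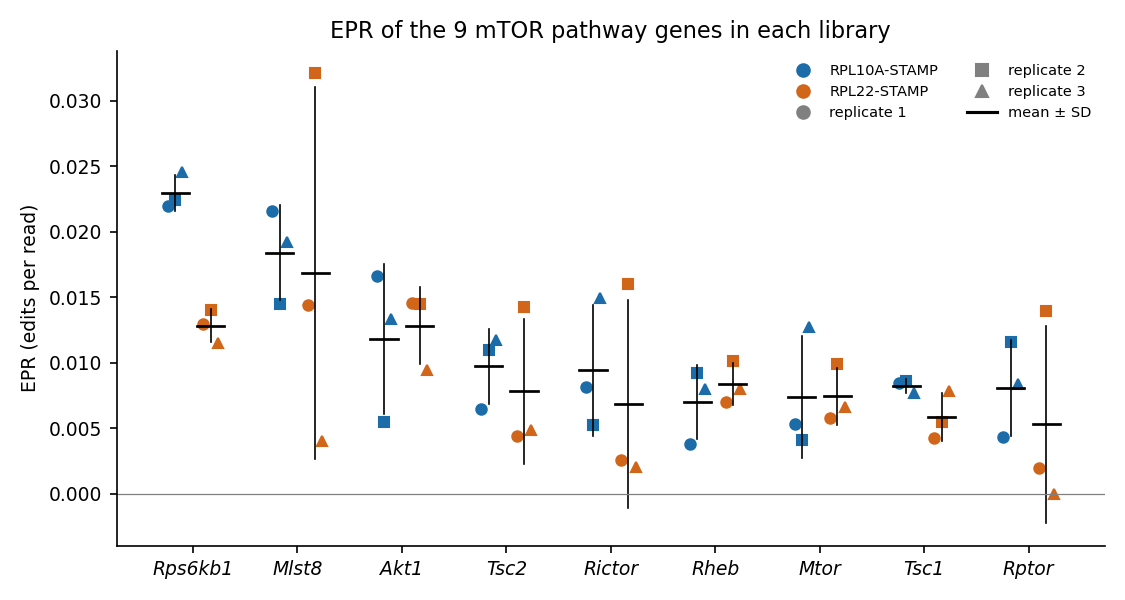
EPR (edits per read, linear axis) of the 9 mTOR pathway genes in each of 6 libraries, ordered by the mean over all libraries, with the colour giving the construct, the symbol the replicate, and black lines the mean ± SD of 3 libraries. Only *Rps6kb1* has all RPL10A-STAMP points, from 0.0219 to 0.0245, above all RPL22-STAMP points, from 0.0115 to 0.0140, while *Mlst8* spreads from 0.00405 to 0.0321 within RPL22-STAMP.

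Since EPR divides edits by reads of the same gene, both of which grow with transcript length, genes were set side by side on the EPR scale without a further division by length. Averaged over all 6 libraries, *Rps6kb1* had the highest EPR of the members (0.0179 ± 0.00568, SD, n = 6), followed by *Mlst8* (0.0176 ± 0.00929) and *Akt1* (0.0123 ± 0.00410). The other 6 lay between 0.00669 for *Rptor* and 0.00877 for *Tsc2*, with *Rictor* at 0.00815, *Rheb* at 0.00768, *Mtor* at 0.00740 and *Tsc1* at 0.00705 between them. None of the 8 pairs of neighbours in this order differed beyond the spread between libraries (exact paired permutation tests over 6 libraries, two-sided, p from 0.1875 to 0.96875, adjusted over the 8 pairs from 0.875 to 0.96875, with 0.03125 the smallest possible). *Rps6kb1* was above *Rheb*, *Mtor*, *Tsc1* and *Rptor* in 6 of 6 libraries, above *Tsc2* and *Rictor* in 5 and above *Mlst8* and *Akt1* in 4. Its place within a library ran from 1 to 5 of 9, and that of *Mtor* from 5 to 9. *Rps6kb1*, *Mlst8* and *Akt1* stood in the same places when percentiles within each library replaced EPR, and *Akt1* kept its place whichever library was left out.

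Most members lay in the lower part of the edited genes. The median of the 9 members' mean EPR was 0.00815, against 0.0135 among the 8046 genes edited in all 6 libraries. Of the 9 members, 6, 8 and 7 were below the median edited gene in RPL10A-STAMP replicates 1, 2 and 3, against 6, 3 and 8 for RPL22-STAMP replicates 1, 2 and 3. *Rps6kb1* was above that median in 6 of 6 libraries, with percentiles from 50.7 to 76.8. *Mtor*, *Tsc1* and *Rheb* were below it in all 6, *Mtor* at percentiles from 7.28 to 41.1, *Tsc1* from 15.4 to 33.8 and *Rheb* from 8.84 to 39.7. *Mlst8* crossed the median, from percentile 10.5 in RPL22-STAMP replicate 3 to 87.6 in RPL22-STAMP replicate 2.

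**Figure D2:**
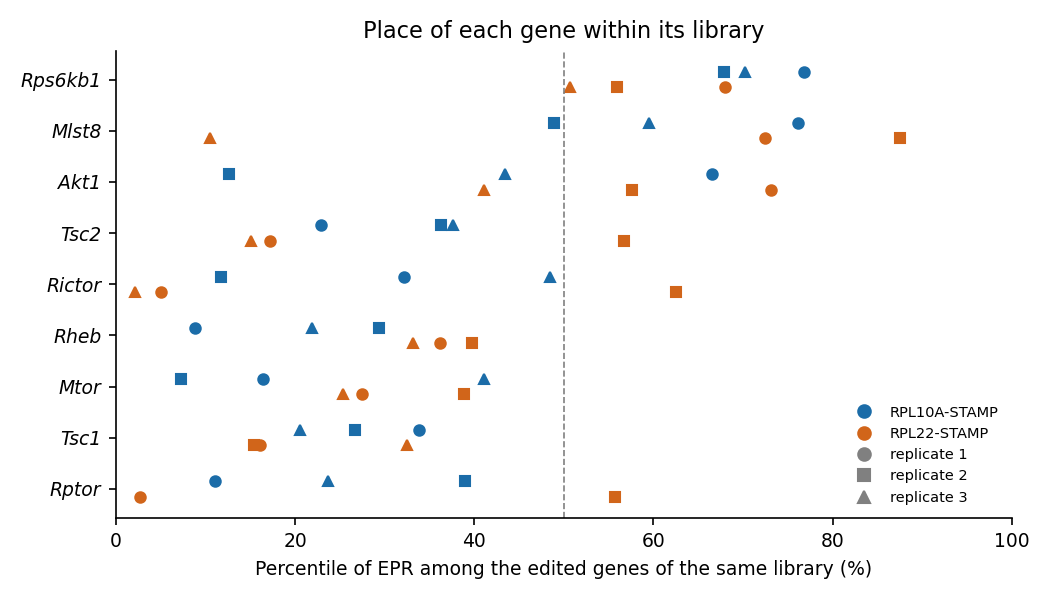
Percentile of each member's EPR among the edited genes of its own library (x axis, 0 to 100), with the dashed line at the median edited gene and *Rptor* in RPL22-STAMP replicate 3, listed at 0, not drawn. *Rps6kb1* is right of the line in all 6 libraries, *Mtor*, *Tsc1* and *Rheb* are left of it in all 6, and only 3 members are left of it in RPL22-STAMP replicate 2.

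To compare libraries, a scaled EPR was formed by dividing each value by the library's median (taken over genes with edits in every library) and multiplying by the geometric mean of those 6 medians. RPL22-STAMP replicates 2 and 3 stood at opposite ends for several members. *Mlst8*, *Rictor*, *Tsc2* and *Rheb*, 4 of the 8 members edited in all 6 libraries, had their highest scaled EPR in RPL22-STAMP replicate 2, as did 14.5% of the 8046 genes edited in all 6. *Mlst8*, *Rictor*, *Tsc2* and *Rps6kb1* had their lowest in RPL22-STAMP replicate 3, as did 18.1% of those genes. The SD of log2(scaled EPR + 0.01) was larger with RPL22-STAMP than with RPL10A-STAMP for 5 of the 8 members and for 58.5% of all genes tested. It was 0.77 against 0.29 for *Mlst8* and 0.58 against 0.30 for *Rictor*, whereas for *Rheb* it was 0.04 against 0.17.

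The comparison of RPL10A-STAMP with RPL22-STAMP asks whether the construct changes which mRNAs are marked. The constructs differ both in the ribosomal protein and in the order of the fusion, and the effects of these cannot be told apart here. None of the 8 members that could be tested was called different between the constructs, and none had an unadjusted p under 0.05 (limma on log2(scaled EPR + 0.01), Benjamini-Hochberg adjustment over the 8046 genes edited in all 6 libraries). Of all genes tested, 14.3% were called at an adjusted p under 0.05, 8.51% with higher values for RPL10A-STAMP and 5.77% with higher values for RPL22-STAMP, and 30.9% had an unadjusted p under 0.05. *Rptor* was left out of this fit because of its value of 0. When every gene edited in at least 3 libraries was tested, its log2 fold change was 0.21 (limma adjusted p = 0.750). Fold changes are RPL10A-STAMP over RPL22-STAMP and, because of the 0.01 added, come out too small where EPR is low, as it is for most members.

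With 0.01 added to EPR, the member with the largest positive value was *Rps6kb1*, with a log2 fold change of 0.29 (standard error 0.14, 95% interval from -0.05 to 0.62, limma adjusted p = 0.227). Its scaled EPR ran from 0.0184 to 0.0230 with RPL10A-STAMP and from 0.0128 to 0.0179 with RPL22-STAMP, so that the groups still did not overlap after scaling, though the gap between them was small. *Rheb* had a value of -0.29, nearly the same as *Akt1* (standard error 0.13, 95% interval from -0.60 to 0.01, limma adjusted p = 0.175). After scaling, its RPL10A-STAMP libraries, from 0.00401 to 0.00758, were all below its RPL22-STAMP libraries, from 0.00890 to 0.00982, although in the deposited EPR the groups overlapped. *Rps6kb1* and *Rheb* were thus 2 of 8 members without overlap on the scaled EPR (p = 0.1 each by the same exact permutation test), which was so for 37.1% of all genes tested, 20% with RPL10A-STAMP higher and 17.1% with RPL22-STAMP higher.

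With no pseudocount, *Rictor* was at 0.59 and *Rps6kb1* at 0.46, while *Rheb*, *Akt1* and *Mtor* were at -0.72, -0.62 and -0.54, and no member was called.

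As for *Rps6kb1* and *Rheb*, the interval of each of the other members included differences of either sign. The log2 fold change of *Akt1* was -0.29 (95% interval from -0.90 to 0.32, limma adjusted p = 0.485) and that of *Mtor* -0.19 (95% interval from -0.59 to 0.21, limma adjusted p = 0.484). *Rictor* had 0.14 with a 95% interval from -0.56 to 0.85, and *Mlst8* -0.0033 with the widest interval, from -0.88 to 0.88. The inhibitors gave 0.06 for *Tsc1* (95% interval from -0.26 to 0.37) and 0.01 for *Tsc2* (95% interval from -0.43 to 0.46). Of the 8 values 4 were positive and 4 negative, with a median of 0.0057 against -0.01 over all genes tested. The median standard error of the members was 0.18, as it was over all genes tested (0.18), and the smallest absolute log2 fold change among called genes was 0.41. Without scaling, the median of all genes moved to 0.18 on the log2 scale, and *Mlst8* turned to 0.21.

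**Figure D3:**
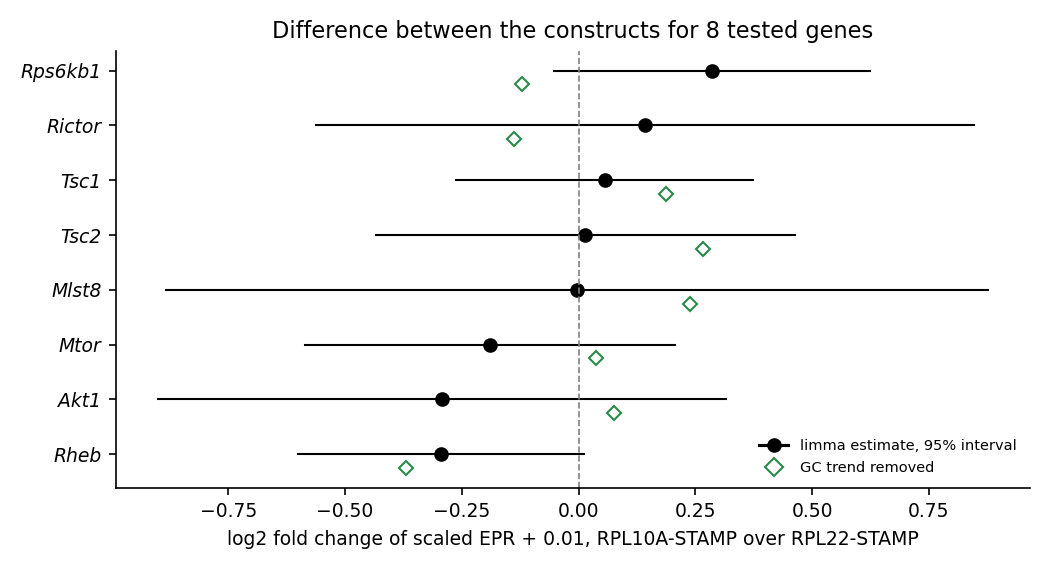
Log2 fold change of scaled EPR + 0.01, RPL10A-STAMP over RPL22-STAMP, for the 8 members edited in all 6 libraries, with black points and lines for the limma estimate and its 95% interval and open diamonds for the estimate after each library's trend with GC content was removed. Every interval includes 0, *Rheb* (-0.60 to 0.01) and *Rps6kb1* (-0.05 to 0.62) by the least, and the diamonds of *Rps6kb1*, *Rictor*, *Mlst8*, *Mtor* and *Akt1* lie on the other side of 0 from their points.

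The fold changes were set beside the GC content of the transcripts. *Rps6kb1* had a GC content of 39.2%, at percentile 3.56 of the genes tested, and *Rictor* one of 42.5%, at percentile 14.6, and both had positive fold changes. *Akt1*, with 59.7% at percentile 96.5, and *Mtor*, with 54.2% at percentile 78.3, had negative ones. *Rheb* had a GC content of 47.1%, below the median of 48.9%, and a negative value. *Tsc2* (55.0%), *Mlst8* (54.7%) and *Tsc1* (51.7%) were above that median in GC content with values near 0, and *Tsc2* and *Mlst8* had a higher GC content than *Mtor*. Across the 8 members Spearman's rho between GC content and fold change was -0.55, and across all genes tested it was -0.47, the points sharing the same 6 libraries. Over all genes tested, the median log2 fold change fell from 0.38 in the class with the lowest GC content to -0.32 in the class with the highest, when the genes were divided into 10 classes of equal size.

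With the trend of each library with GC content removed, the members changed as follows. *Rps6kb1* went from 0.29 to -0.12 (limma adjusted p = 0.622), *Rictor* from 0.14 to -0.14, *Akt1* from -0.29 to 0.075, *Mtor* from -0.19 to 0.037 and *Mlst8* from -0.0033 to 0.24. The inhibitors went from 0.06 to 0.19 for *Tsc1* and from 0.01 to 0.27 for *Tsc2*. *Rheb* kept its direction and stood at -0.37 (limma adjusted p = 0.121). Across the 8 members rho then was 0.71, against 0.04 over all genes with a transcript. No member was called in this fit either, where 8.25% of the genes were.

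**Figure D4:**
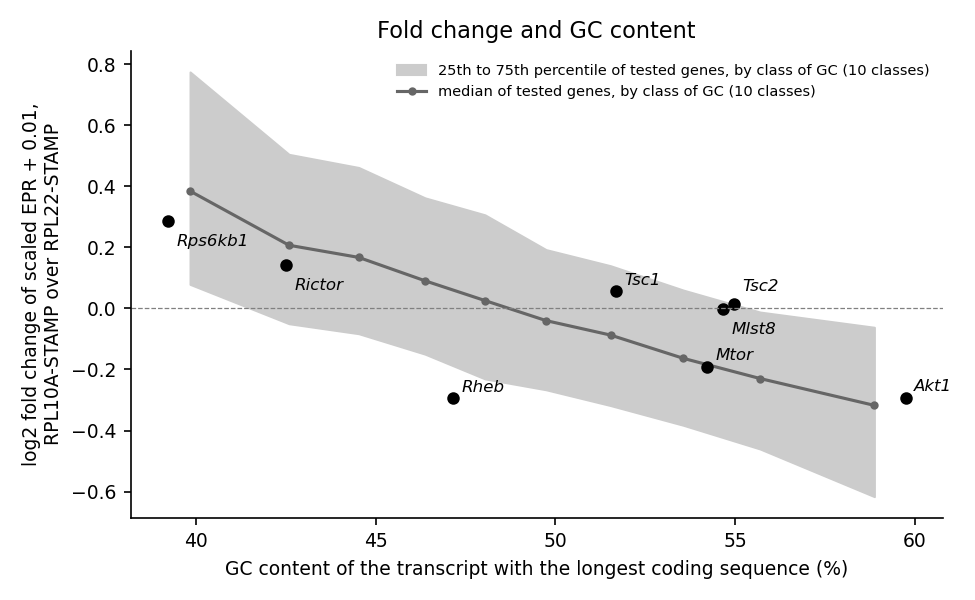
GC content of the transcript with the longest coding sequence (x axis, percent) against the log2 fold change of scaled EPR + 0.01, RPL10A-STAMP over RPL22-STAMP, for the 8 tested members (points), with the grey line and band for the median and the 25th to 75th percentile of tested genes in 10 equal classes of GC content. The band descends from a median of 0.38 to -0.32, and of the members *Rheb*, at 47.1% GC, lies below it and *Tsc2*, at 55.0%, near its upper edge.

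Other genes of the pathway were examined as a list of 94, grouped by role, of which 75 were edited in all 6 libraries and tested. Of the 75, 7 were called, 6 with higher values for RPL10A-STAMP and 1 with higher values for RPL22-STAMP, or 9.33%, below the 14.3% of all genes tested. The median log2 fold change of the 75 was -0.07, against -0.01 over all genes tested. The other subunits of the mTOR complexes (5 tested), the additional members of the TSC and Rheb step (1 tested), the targets of mTORC1 and mTORC2 (14 tested) and mRNAs with a TOP motif other than those of ribosomal proteins (14 tested) held no called gene. TOP mRNAs are the class whose translation depends most on mTORC1, and their median log2 fold change was 0.00014. The median of their mean EPR was 0.00600, below the 0.01 added, so their fold changes come out too small and calls among them are harder to reach.

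The Rag GTPases and the Ragulator bring mTORC1 to the lysosome when amino acids are present, and were grouped with other genes, among them *Slc38a9* and *Fnip1*. Of the 11 tested genes of this group 3 were called, all higher with RPL10A-STAMP. Among the Rag GTPases and the Ragulator subunits themselves only *Rragc* was called. Over all genes tested, 14.3% were called, 8.51% with RPL10A-STAMP higher. With the GC trend removed, 0 of the 11 were called. *Slc38a9*, a lysosomal arginine sensor, had an EPR of 0.0698, 0.0767 and 0.0965 with RPL10A-STAMP, against 0.0366, 0.0330 and 0.0208 for RPL22-STAMP (log2 fold change 0.87, limma adjusted p = 0.0479). *Rragc*, a Rag GTPase, had 0.67 (limma adjusted p = 0.0476), and *Fnip1*, a partner of folliculin that acts on the Rag GTPases, 0.59 (limma adjusted p = 0.0307). Of 9 tested genes of the GATOR and KICSTOR complexes and the nutrient sensors, *Mios*, a subunit of GATOR2, was the only call, with 0.84 (limma adjusted p = 0.0371).

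From PI3K to Akt, 1 of 12 tested genes was called, with higher values for RPL10A-STAMP. *Pik3cb*, a catalytic subunit of PI3K, had an EPR of 0.0434, 0.0872 and 0.0700 with RPL10A-STAMP, against 0.00877, 0.0298 and 0.00897 for RPL22-STAMP, and its log2 fold change of 1.36 (standard error 0.28, limma adjusted p = 0.0230) was the largest of the list. Of 9 tested genes of AMPK and of energy or stress input, 2 were called in opposite directions, and both encode subunits of AMPK, the kinase that restrains mTORC1 when energy is low. *Prkaa1*, its catalytic alpha subunit, had a log2 fold change of 1.12 (limma adjusted p = 0.0235). *Prkab2*, a beta subunit, was the call in favour of RPL22-STAMP, with an EPR of 0.0168, 0.0258 and 0.0197 with RPL10A-STAMP, against 0.0296, 0.0421 and 0.0274 for RPL22-STAMP, and a log2 fold change of -0.76 (standard error 0.16, limma adjusted p = 0.0232).

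These calls were near the threshold, and the balance of directions among called genes of the list moved with the processing, as genes left or entered. Under the replicate block 1 was higher and 2 lower with RPL10A-STAMP. They were *Pik3cb*, *Prkab2* and *Akt1s1*, the last from the group of mTOR complex subunits and not among the 7 (log2 fold change -0.95, limma adjusted p = 0.0621 without the block). With the GC trend removed 2 were higher and 1 lower. Without RPL10A-STAMP replicate 3 none of the 7 was called, without RPL10A-STAMP replicate 2 none of them (*Ulk1*, not among the 7, was then called), without RPL22-STAMP replicate 3 *Prkab2* (and *Sesn2*, also not among the 7), without RPL10A-STAMP replicate 1 *Pik3cb* and *Prkaa1*, without RPL22-STAMP replicate 2 *Pik3cb* and *Rragc*, and without RPL22-STAMP replicate 1 *Prkaa1*, *Slc38a9* and *Mios*. With the GC trend removed, *Pik3cb* (1.22, limma adjusted p = 0.0421) and *Prkab2* (-0.85, limma adjusted p = 0.0231) were called, and *Nprl3*, a subunit of GATOR1 named here after its values were seen, was called as well, while *Fnip1*, at 0.17 (limma adjusted p = 0.416), was not.

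**Figure D5:**
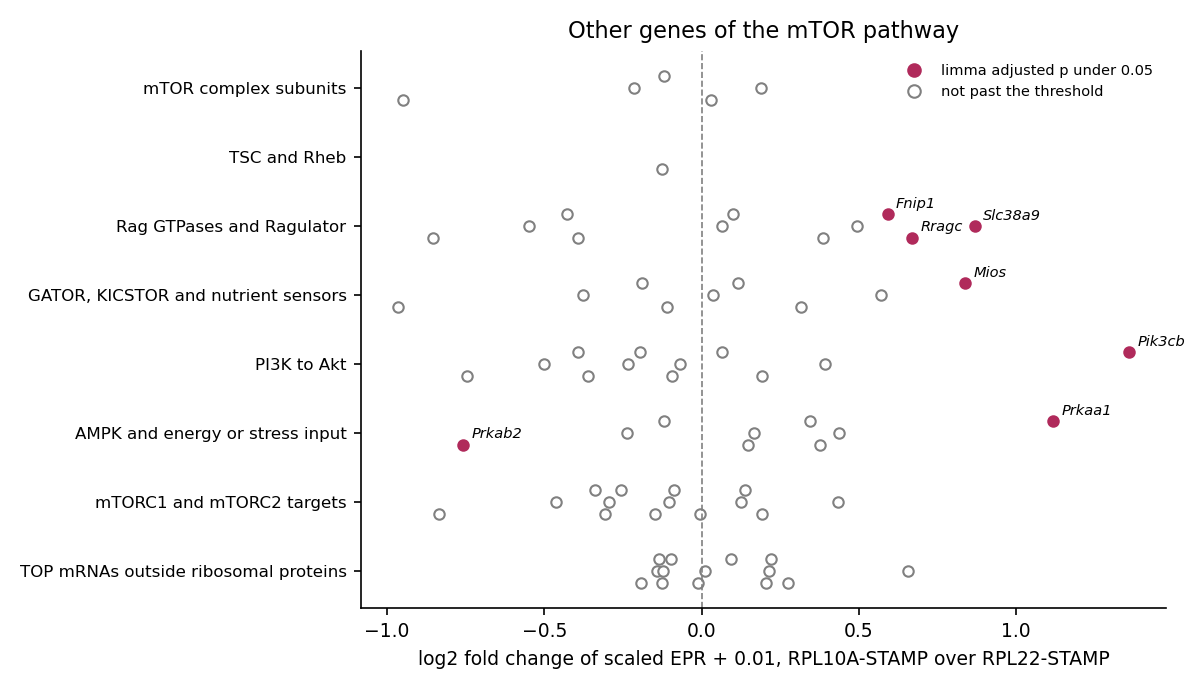
Log2 fold change of scaled EPR + 0.01, RPL10A-STAMP over RPL22-STAMP (x axis), for the 75 tested genes of the wider pathway list by role (rows, points moved up or down within a row only to separate them). The 7 filled and named points passed an adjusted p of 0.05 in limma, 6 to the right of 0 up to *Pik3cb* at 1.36 and *Prkab2* to the left at -0.76.

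Close relatives of the members were set beside them. *Akt2*, a paralog of *Akt1*, averaged an EPR of 0.0152 ± 0.0106 (SD, n = 6) and was above *Akt1* in 4 of 6 libraries (two-sided exact paired permutation test, p = 0.6875, also after adjustment over 2 pairs). *Rps6kb2*, the other S6 kinase gene, was edited in 5 libraries, averaged 0.00795 ± 0.00625 (SD, n = 6) and was below *Rps6kb1* in 5 of 6 (p = 0.0625 in the same exact test, 0.125 adjusted over 2 pairs). *Rhebl1*, a relative of *Rheb*, was edited in only 2 libraries. Between the constructs, *Akt2* had a log2 fold change of -0.75 (standard error 0.40, limma adjusted p = 0.253), against -0.29 for *Akt1*, and neither was called. *Rps6kb2* and *Rhebl1* were not tested, being listed at 0 in at least 1 library.

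The genes whose pattern over the 6 libraries came nearest to that of *Mtor* were *Hivep3*, *Kcnj9* and *Tbc1d30*. Their root mean square difference from *Mtor* in log2(scaled EPR + 0.01) was 0.08, 0.09 and 0.10, against 0.56 for the median of the 8045 other genes. *Hivep3* had an EPR of 0.00583, 0.00416 and 0.0113 with RPL10A-STAMP, against 0.00434, 0.00926 and 0.00686 for RPL22-STAMP, following *Mtor* in its high RPL10A-STAMP replicate 3 and low replicate 2. For *Rheb*, whose absolute fold change was the largest of the members by a narrow margin over *Akt1*, the nearest were *Fkbp3*, *Chrnb2* and *Rhobtb2* at 0.07, 0.07 and 0.09, against a median of 0.53. The measure rewards a like level as well as a like pattern. These genes were picked as the nearest, so their small differences and like patterns follow from the choice.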

How the data were processed

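EPR was measured by bulk RNA-seq of polyA RNA in 6 libraries, 3 per construct, grouped by the treatment label. The authors used STAR for the alignment to mm10 after trimming, allowing a read at most 10 locations, SAILOR for the edit calls and featureCounts for the reads of each gene. The authors deposited the ratio of edits to reads for each gene, not normalized between libraries, and the gene annotation is not given in the sources used here. The ratio holds no depth, so no counting interval was computed. The study's methods call the replicates biological, while its results speak of technical replicates where the EPR of the variants is correlated. The labels say neither, so p-values measure the spread between these libraries. Of 31053 genes, 31011 were named through GENCODE M21 and 42 were not.

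Each library was scaled to its median as described, and log2(EPR + 0.01) was fitted with limma 3.58.1 (trend, R 4.3.3) on the 8046 genes edited in all 6 libraries, with Benjamini-Hochberg adjustment and a threshold of 0.05. Single values were compared by exact permutation (scipy 1.17.1), and exact copies of at least 50 bases were searched in GRCm38 with BLAST 2.17.0. GC and length trends were removed with natural splines of 4 degrees of freedom. The members, the wider list, the markers and the tests were chosen with earlier results of these data known. Named genes are all members, the called genes of the wider list, *Akt2*, *Rps6kb2* and *Rhebl1*, and the 3 genes nearest to *Mtor* and to the member with the largest absolute fold change. *Akt1s1*, *Ulk1*, *Sesn2* and *Nprl3* were named after their values were seen. Some genes of the pathway are not reported here. Same-numbered replicates did not deviate together (correlations of 0.0437, 0.0464 and -0.00546), so the numbers were not taken to pair libraries.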

Additional observations from a re-analysis of the deposited data

How the results depend on the processing

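None of the 8 tested members was called under any of the 18 alternatives, nor was *Rptor* under the wider filters, the only fits that held it, the lowest adjusted p being 0.0798 for *Rps6kb1* without scaling (limma). Of 75 tested genes of the wider list 7 were called, but 1 of 89 when edits in only 3 libraries were required, 0 of 92 with no filter, 3 with the replicate number as a block, 3 with the GC trend removed, 1 with both, and 0 to 3 with 1 library left out. Calls higher and lower with RPL10A-STAMP numbered 6 and 1 as reported, 1 and 2 with the block, 2 and 1 with the GC trend removed, 4 and 2 with a pseudocount of 0.001, with none and with scaling to the 75th percentile, 7 and 0 without scaling, 0 and 2 without RPL22-STAMP replicate 3, and 0 and 1 without RPL10A-STAMP replicate 2. None of the 7 changed sign. They were called in 12 (*Pik3cb*), 10 (*Prkab2*), 9 (*Prkaa1*), 8 (*Mios*), 7 (*Fnip1*), 4 (*Rragc*) and 3 (*Slc38a9*) of the 18. Over all genes tested the count went from 1149 (14.3%) to 754 of 10909 (6.91%) with edits in only 3 libraries required and 569 of 12811 (4.44%) with no filter. It was 603 (7.49%) with the block, 663 (8.25%) with the GC trend removed and 227 (2.82%) with both. With 1 library left out it ran from 369 (4.59%) to 873 (10.9%). Without scaling, RPL10A-STAMP was the higher side in 88.1% of 1085 calls, against 59.6%.

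The members' directions were less steady. With the GC trend removed, with or without the replicate block, *Mtor* was at 0.037, *Rictor* at -0.14, *Mlst8* at 0.24, *Rps6kb1* at -0.12 and *Akt1* at 0.075. *Mlst8* was at 0.13 with a pseudocount of 0.001, 0.17 with none and 0.21 without scaling. *Tsc2* was at -0.0011 with a pseudocount of 0.1 and -0.024 with scaling to the 75th percentile. With the length trend removed, *Rictor* was at -0.031, *Tsc1* at -0.081 and *Tsc2* at -0.067. With 1 library left out, *Mlst8* ranged from -0.43 to 0.32, *Tsc2* from -0.10 to 0.21, *Tsc1* from -0.0072 to 0.15, *Rictor* from -0.057 to 0.47, *Akt1* from -0.52 to -0.057 and *Mtor* from -0.33 to -0.057. *Rheb* was negative in all 18. *Akt1* was farther below 0 than *Rheb* with scaling to the 75th percentile (-0.335 against -0.331), with quantile normalization (-0.295 against -0.280), with a pseudocount of 0.1, with the length trend removed, and without RPL10A-STAMP replicate 1 or RPL22-STAMP replicate 2 or 3. *Rictor* was above *Rps6kb1* with a pseudocount of 0.001 (0.45 against 0.43), with none, and without RPL22-STAMP replicate 2 (0.47 against 0.25). The cause of these changes was not tested. In the order of mean EPR, *Rps6kb1* and *Mlst8* kept the first and second places between them with any library left out. Without depth, the error of each ratio is unknown.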
